A study of Homo sapiens with 24 samples.

Results

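Values of 14170 genes in SKBR7 cells were used to measure where the transcript level after both drugs differed from the sum of the changes that each drug gave alone. SKBR7 is an established cell line described as triple-negative breast cancer. The members are the genes with a value in all 12 SKBR7 libraries, out of 36481 genes in the deposited table, of which 31141 were listed in at least 1 SKBR7 library. The 4 groups of 3 libraries each were co-treatment with lapatinib at 3.16 µM and PHA-767491 at 1 µM, lapatinib alone at 3.16 µM, PHA-767491 alone at 1 µM, and the vehicle DMSO at 0.1%, all taken after 6 h. The series holds 2 lines, SKBR7 and Hs578T, with the same 4 groups in each and 24 libraries in all. The replicates are called triplicates and nothing states separate cultures, so the spread behind every p-value is that of these libraries and may be technical. Each value is a log2 level, scaled by TMM and then quantile normalised by the authors before deposit, and it compares 1 gene between libraries, not genes with each other.

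Lapatinib blocks the kinase activity of the receptors EGFR and HER2, which send growth signals through the ERK and AKT pathways. PHA-767491 blocks CDC7, the kinase that starts DNA replication origins together with the MCM helicase, and CDK9, the kinase of P-TEFb. P-TEFb releases paused RNA polymerase II into elongation and is held inactive by HEXIM1 bound to the 7SK RNA. Transcripts with short half-lives are the first to fall when CDK9 is blocked.

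The departure from additivity is (co-treatment minus lapatinib) minus (PHA-767491 minus DMSO) on group means of log2 values. It is 0 where the changes of the single drugs add up on the log2 scale. A positive value means that the co-treated level lay above the sum and a negative value that it lay below it. The sum itself, lapatinib plus PHA-767491 minus DMSO, is called the additive expectation here.

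The files give no read totals, and the number of genes listed is the sole measure of depth. Co-treatment replicate 1 listed 16232 genes and lapatinib replicate 2 listed 18021, whereas the other 10 libraries listed 20287 to 23282. The median log2 value of the members was 3.36 in co-treatment replicate 1 and 3.88 in lapatinib replicate 2, and 4.35 to 4.78 in the others. Counts over all genes are therefore given with all 12 libraries and without this pair, over the same genes, which leaves 2 libraries each of co-treatment and lapatinib. Many results of single genes and lists are given without the pair only, and with all 12 libraries only 3 genes passed. Lapatinib replicate 2 also listed the collagen genes COL1A1 at 8.95 and COL1A2 at 8.16, against at most 5.46 and 4.97 in the 11 other SKBR7 libraries, while the 12 Hs578T libraries listed them at 11.8 or more and 11.4 or more. Among epithelial markers, KRT7, KRT8 and KRT18 ranged from 9.90 to 11.87 over the 12 libraries and CDH1 from 4.06 to 5.635. The others were low, with CLDN3, CLDN4 and CLDN7 at 3.15 or less. EPCAM, KRT5, KRT14, KRT19 and ESRP1 were each listed in 9 libraries or fewer, at −0.109 or less. Of the mesenchymal markers VIM ranged from 8.56 to 9.53, while ZEB2, SNAI2 and TWIST1 reached at most 2.86. ESR1 was listed in 7 libraries at −1.02 or less and PGR in 1, while ERBB2 ranged from 5.46 to 6.97. Of 7 leukocyte markers, 4 were listed in none of the 12. Of the 12 mesenchymal markers 11 were listed in all 12 libraries, as were 7 of the 12 epithelial markers, so both kinds of transcript are present in this line.

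**Figure D1:**
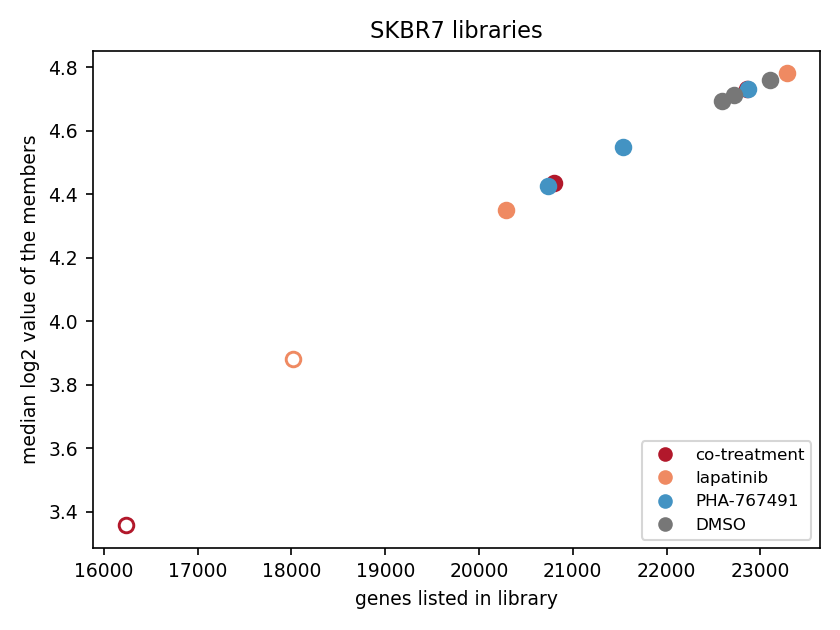
Each point is 1 of the 12 SKBR7 libraries, with the number of genes it lists on the horizontal axis and the median log2 value of the 14170 members on the vertical axis, coloured by group. The open points are co-treatment replicate 1 (16232 genes, median 3.36) and lapatinib replicate 2 (18021 genes, median 3.88), which lie apart from the other 10 libraries at medians of 4.35 to 4.78.

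Across all 12 libraries 3 genes departed from additivity at an adjusted p under 0.05 (limma with Benjamini-Hochberg adjustment over the 14170 genes). RBM15 and TNFRSF10D lay above the additive expectation, which is 0.0141% of the genes tested, and UTP18 lay below it, which is 0.00706%. Another 539 genes reached an unadjusted p under 0.05, and the median departure over all genes was 0.07. In bulk RNA a lower level in each cell and fewer cells that express a gene cannot be told apart. In the 10 libraries the counts were 592 genes above (4.18%) and 423 below (2.99%), with 3001 genes at an unadjusted p under 0.05 and a median of 0.20. All 3 genes called with 12 libraries were among them. When the 10 libraries were ranked anew over the members, so that each had the same distribution, the median was 0.02 and the counts were 1121 above (7.91%) and 1576 below (11.1%). That scaling turned the balance of the calls, 58.3% above in the 10 libraries as deposited and 41.6% above when ranked anew. The 423 genes below were all called again when ranked anew and 530 of the 592 above were.

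The same fits show what the departures are made of. In 12 libraries co-treatment against DMSO gave 36 genes higher (0.254%) and 687 lower (4.85%), lapatinib against DMSO gave 0 (0%, 256 at an unadjusted p under 0.05) and PHA-767491 against DMSO gave 0 (0%, 120 unadjusted), all by limma. In 10 libraries co-treatment gave 801 higher (5.65%) and 2240 lower (15.8%), lapatinib again 0 (634 unadjusted), and PHA-767491 gave 25 higher (0.176%) and 165 lower (1.16%). These 3 comparisons share the DMSO libraries.

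The 3 genes called with all 12 libraries had co-treated levels outside the range of the 9 other libraries. RBM15 encodes an RNA-binding protein that recruits the m6A methyltransferase complex to its RNA targets. Its log2 values were 6.16, 6.76 and 6.99 in co-treatment, 3.57, 3.45 and 3.98 in lapatinib, 4.10, 4.56 and 4.04 in PHA-767491, and 4.11, 4.46 and 4.38 in DMSO. Every co-treated library was at least as high as 6.16 and no other library exceeded 4.56, so neither drug alone came near the combined level. The additive expectation was 3.58 and the departure 3.06 (SE 0.50, adjusted p = 0.0216), and without the pair of libraries that list few genes it was 3.18 (SE 0.30, adjusted p = 6.38e-10). The deposited annotation places RBM15 (ENSG00000162775.14) on chromosome 1 from 110338506 to 110346681 of GRCh38. An antisense transcript, RP5-1074L1.1, overlaps it and was listed in 11 libraries at a median log2 value of −0.43.

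TNFRSF10D encodes a decoy receptor for the death ligand TRAIL that lacks a working death domain. It was listed at 7.75, 7.92 and 8.07 in co-treatment, 5.48, 4.80 and 5.78 in lapatinib, 6.36, 6.54 and 6.39 in PHA-767491, and 5.81, 5.89 and 5.90 in DMSO. The single drugs lay on opposite sides of DMSO for this gene, lapatinib below it and PHA-767491 above it, and the additive expectation was 5.92. The departure was 1.998 (SE 0.32, adjusted p = 0.0216) with 12 libraries and 1.80 (SE 0.17, adjusted p = 6.38e-10) with 10. TNFRSF10D (ENSG00000173530.5) lies on chromosome 8 from 23135588 to 23164030.

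UTP18 encodes a component of the small-subunit processome, which matures the ribosomal RNA of the small subunit in the nucleolus. Its values were 4.39, 4.83 and 5.03 in co-treatment, 6.56, 6.68 and 6.61 in lapatinib, 6.54, 6.63 and 6.58 in PHA-767491, and 6.65, 6.67 and 6.63 in DMSO. The 9 libraries with 1 drug or none spanned only 6.54 to 6.68, and all 3 co-treated libraries lay below 5.04. With an additive expectation of 6.55, the departure was −1.80 (SE 0.30, adjusted p = 0.0216) with 12 libraries and −1.59 (SE 0.17, adjusted p = 1.36e-08) with 10. UTP18 (ENSG00000011260.13) lies on chromosome 17 from 51260528 to 51297936.

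Leaving out each of the 12 libraries in turn kept the sign of these 3 departures but often not the call. RBM15 passed in 4 of the 12 repeats (departure 2.88 to 3.29, adjusted p 7.54e-05 to 0.148), TNFRSF10D in 3 (1.72 to 2.21, adjusted p 1.16e-05 to 0.148) and UTP18 in 5 (−1.94 to −1.62, adjusted p 6.38e-05 to 0.167). No gene passed without co-treatment replicate 2 or without any 1 of the 6 PHA-767491 and DMSO libraries (320 to 521 at an unadjusted p under 0.05), while 9 genes above and 118 below passed without lapatinib replicate 2. Without the variance trend in limma none of the 3 passed, at adjusted p = 0.182 for RBM15, 0.811 for TNFRSF10D and 0.596 for UTP18. In the 10 libraries each of the 3 passed in all 10 such repeats. The next genes in order came nearest the threshold with all 12 libraries. They were MGEA5 (−1.52, adjusted p = 0.103), CDKN1A (1.20, 0.103), DDX17 (−1.30, 0.140), EGFR (−1.21, 0.140) and VAV2 (−1.29, 0.140). DDX17 and VAV2 were chosen after their values were seen.

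The stretch of 250 bases upstream of the RefSeq start is shown for RBM15 and UTP18, whose departures were opposite in sign. Both are read 5′ to 3′ on the plus strand of GRCh38.p14 from RefSeq. Capitals mark matches on either strand to CCAAT (the CCAAT box, or ATTGG where it lies on the other strand), GGGCGG (the GC box) and CACGTG (the E-box).
RBM15, chr1:110339127-110339376: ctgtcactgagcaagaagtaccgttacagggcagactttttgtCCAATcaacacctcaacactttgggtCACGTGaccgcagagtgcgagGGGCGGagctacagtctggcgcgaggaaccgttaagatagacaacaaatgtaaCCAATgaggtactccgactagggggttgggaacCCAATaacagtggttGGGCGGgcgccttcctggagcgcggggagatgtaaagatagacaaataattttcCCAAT
UTP18, chr17:51260296-51260545: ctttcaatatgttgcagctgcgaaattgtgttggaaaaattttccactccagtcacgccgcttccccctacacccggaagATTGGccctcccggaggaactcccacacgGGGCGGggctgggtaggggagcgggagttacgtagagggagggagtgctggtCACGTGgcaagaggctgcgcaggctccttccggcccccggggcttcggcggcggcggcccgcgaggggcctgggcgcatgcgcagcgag

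The RBM15 stretch lies within the deposited gene interval, which starts further upstream than the RefSeq transcript. It holds 4 CCAAT boxes, 2 GC boxes and 1 E-box, and the UTP18 stretch holds 1 of each, with its CCAAT box on the other strand. Over the same window of 27305 RefSeq promoters, 33.0% held a CCAAT box, 42.3% a GC box and 6.49% an E-box. Neither stretch holds TATAAA (the TATA box, in 11.1% of promoters), TGACTCA (the AP-1 site, in 4.16%) or TGACGTCA (the CRE, in 1.77%). The matches share no bases with each other, and they describe letters and not binding.

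**Figure D2:**
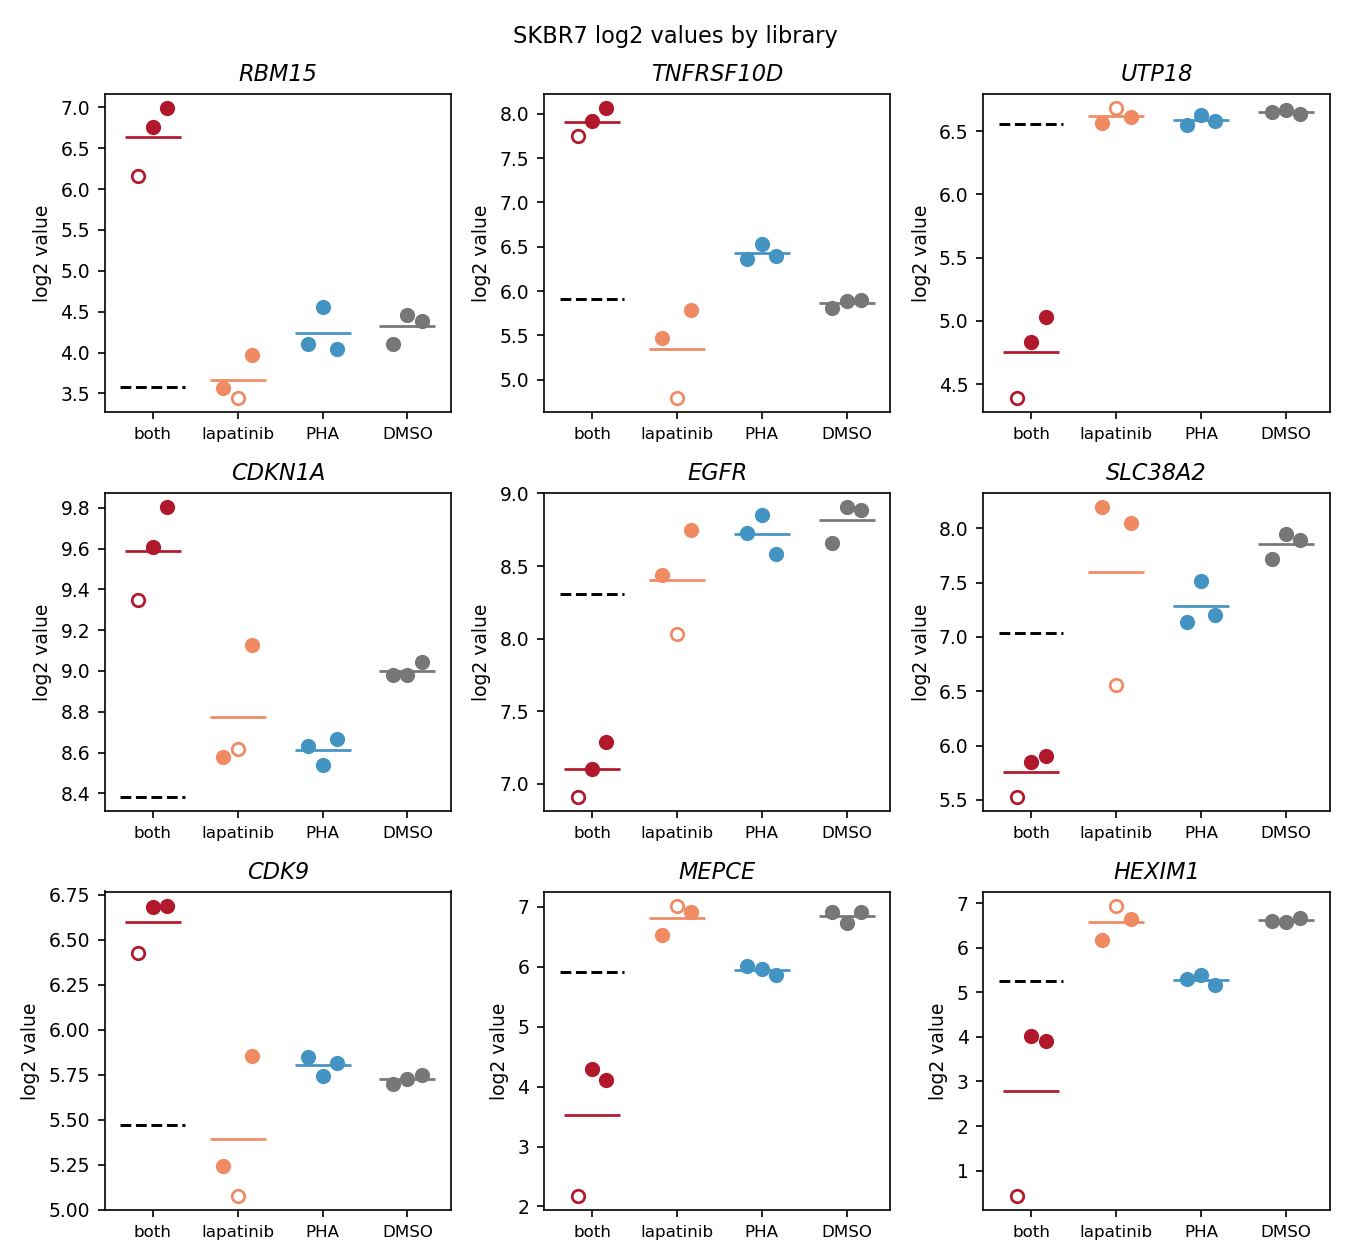
Log2 values of 9 genes in the 12 SKBR7 libraries, 1 point per library, with groups from left to right co-treatment ("both"), lapatinib, PHA-767491 ("PHA") and DMSO. Solid lines are group means over 3 libraries, the dashed line is the additive expectation for co-treatment, and open points are the pair of libraries that list few genes. The co-treated points of RBM15, TNFRSF10D, CDKN1A and CDK9 all lie above the dashed line, and those of UTP18, EGFR, SLC38A2, MEPCE and HEXIM1 all lie below it. For RBM15, TNFRSF10D, UTP18, SLC38A2 and MEPCE the naming rule itself asked for co-treated libraries on 1 side of the expectation. Their placement is therefore no separate evidence.

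The departures were then read against the changes that the single drugs gave. Among the 423 genes below in the 10 libraries, 351 (83%) changed by more than 0.5 against DMSO only in co-treatment, as UTP18 did, and 12 had a single drug that moved them more than 0.5 in the same direction. Their median change against DMSO was −0.86 in co-treatment, −0.01 in lapatinib and −0.05 in PHA-767491. Among the 592 genes above, 194 (32.8%) changed only in co-treatment. For another 84 at least 1 drug alone lowered the gene by more than 0.5, and in 58 of these the co-treated level was within 0.5 of DMSO. The median changes of the 592 were 0.38 in co-treatment, −0.23 in lapatinib and −0.19 in PHA-767491. Over all genes in the 10 libraries the medians were −0.13 in co-treatment, −0.16 in lapatinib and −0.17 in PHA-767491. The single-drug medians of the 592 thus lay only slightly below those of all genes, and those of the 423 lay above them. The shares of all genes with these patterns are not given for comparison. Ranked anew, the share that changed only in co-treatment was 62.8% of the genes below and 46.3% of the genes above. The limit of 0.5 was chosen after the data were seen.

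Genes not listed in every library have no departure here. Of 15604 genes listed in all 9 lapatinib, PHA-767491 and DMSO libraries, 14170 were listed in all 3 co-treated libraries, 1268 in 2, 148 in 1 and 18 in none. Of the 1268, 1219 were missing only in co-treatment replicate 1, the library that lists the fewest genes. Another 531 genes were missing only in lapatinib replicate 2, the library that lists the next fewest. None of the 18 exceeded a log2 value of 0.82 in any library. The part of depth in these absences was not tested. In the other direction 5 genes were listed in all 3 co-treated libraries and in none of the 9 others.

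By a rule on size, level and side, the largest departures below the additive expectation in the 10 libraries were those of SLC38A2, MEPCE, UTP18 and 7 other genes. SLC38A2, an amino acid transporter, was listed at 5.85 and 5.90 in co-treatment replicates 2 and 3, 8.20 and 8.05 in lapatinib replicates 1 and 3, 7.14, 7.52 and 7.20 in PHA-767491, and 7.72, 7.95 and 7.89 in DMSO. Its departure was −1.68 (SE 0.15, adjusted p = 4.10e-10), and lapatinib replicate 2, left out of that fit, had 6.56. MALT1, a protease of NF-κB signalling, departed by −1.55 (adjusted p = 4.24e-08), with 5.09 and 5.18 in co-treatment against 6.58 to 6.83 in DMSO. MGEA5, the enzyme that removes O-GlcNAc from proteins, departed by −1.43 (adjusted p = 3.76e-08), and its 3 co-treated values of 5.01, 5.64 and 5.62 all lay below the 6.67 to 7.22 of the other 9 libraries. The rest were MEPCE (−1.62), the Integrator subunit INTS2 (−1.57), the stress granule protein TIA1 (−1.42), HEATR3 (−1.39), the kelch protein IVNS1ABP (−1.39) and the junction protein KRIT1 (−1.39), beside UTP18. Co-treatment replicate 1 had much lower values than replicates 2 and 3 for several of them, 0.92 against 3.77 and 3.82 for INTS2, 0.76 against 3.85 and 4.02 for TIA1 and 0.05 against 3.38 and 4.01 for HEATR3. TIA1 overlaps C2orf42 on the same strand, so reads of these genes may be shared. All 10 genes of this group kept their sign in each of the 10 repeats that left out 1 of the 10 libraries. They were chosen as the largest calls in these libraries, so the repeats are no independent support. In the limma fit without the variance trend HEATR3 (adjusted p = 0.111) and KRIT1 (0.0609) did not pass. The others of this group passed there at adjusted p of 0.0346 to 0.0496.

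By the same rule, the largest departures above the additive expectation differed in how even the lapatinib replicates were. The rule keeps genes with a mean log2 value above 4.44, that of the median gene. It left out, among others, SESN2 (2.22, mean 4.01) and BTG2 (2.10, mean 4.31), which are described with the p53 targets. After RBM15 came GPX1P1 (2.14), a pseudogene whose reads can be shared with GPX1, then TNFRSF10D, C16orf91 (1.75), the scavenger receptor SCARF2 (1.64), the γ-tubulin complex protein MZT2B (1.61), ZNF408 (1.59), the mitochondrial ribosomal protein MRPL12 (1.56), the non-coding RNA LINC01137 (1.45) and the calpain CAPN15 (1.42). LINC01137 was even, with 6.48, 6.91 and 6.89 in co-treatment, 5.18, 5.11 and 5.12 in lapatinib, 5.54, 5.43 and 5.38 in PHA-767491, and 5.22, 5.13 and 5.11 in DMSO (adjusted p = 4.15e-06 in the 10 libraries). C16orf91 was listed at 5.11, 5.76 and 5.97 in co-treatment and at 3.66 to 4.72 in the other 9 libraries (adjusted p = 0.000173). In some of the others lapatinib replicate 1 was low. MRPL12 had 2.41 in lapatinib replicate 1 against 6.22 and 5.00 in replicates 2 and 3, and GPX1P1 had 2.11 against 5.35 and 5.17. Without lapatinib replicate 1 the adjusted p of the departure in the 10 libraries was 0.786 for MRPL12, 0.496 for GPX1P1, 0.305 for MZT2B, 0.204 for CAPN15 and 0.0758 for SCARF2, and ranked anew MRPL12 (adjusted p = 0.127), GPX1P1 (0.0815) and MZT2B (0.0507) did not pass. The count of genes above, 592, moved with single libraries. It was 105 without lapatinib replicate 1, 3167 without lapatinib replicate 3, 119 without co-treatment replicate 3, 329 without PHA-767491 replicate 2 and 360 without DMSO replicate 3. The count of genes below, 423, was 183 without co-treatment replicate 2, 249 without PHA-767491 replicate 2 and 301 to 522 without any other library.

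Of the drug targets, EGFR, CDC7 and CDK9 departed in the 10 libraries and none passed with all 12, while ERBB2, which encodes HER2, did not pass in the 10 (0.06, adjusted p = 0.874). EGFR, a target of lapatinib, was listed at 6.91, 7.10 and 7.28 in co-treatment, 8.44, 8.03 and 8.75 in lapatinib, 8.73, 8.85 and 8.58 in PHA-767491, and 8.66, 8.91 and 8.89 in DMSO. All 3 co-treated values lay below the other 9, and the departure was −1.30 (SE 0.14, adjusted p = 1.64e-08) in the 10 libraries and −1.21 (adjusted p = 0.140) in all 12. It was the only one of 10 measured ERBB receptors and ligands to pass in the 10 libraries, where the median of the 10 was 0.12 beside 0.20 over all genes. CDC7, a target of PHA-767491, was listed at 3.34, 4.41 and 4.77 in co-treatment, 5.71, 4.51 and 5.70 in lapatinib, 5.51, 5.84 and 5.49 in PHA-767491, and 5.48, 5.49 and 5.52 in DMSO. Its departure was −1.23 (SE 0.23, adjusted p = 0.000455) in the 10 libraries, and lapatinib replicate 2 overlapped the co-treated libraries. CDK9, the other target of PHA-767491, went the opposite way, with 6.43, 6.68 and 6.69 in co-treatment, 5.24, 5.08 and 5.86 in lapatinib, 5.85, 5.74 and 5.82 in PHA-767491, and 5.70, 5.73 and 5.75 in DMSO. The departure of CDK9 was 1.06 (SE 0.20, adjusted p = 0.000706) in the 10 libraries and 1.13 (adjusted p = 0.680) in all 12.

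Among the partners of CDK9 were departures of both signs. Of 25 measured genes of P-TEFb, the 7SK complex and elongation, 5 lay above and 2 below in the 10 libraries and 0 in all 12, with medians of 0.16 and −0.09, against 4.18% above and 2.99% below of all genes in the 10. The cyclins of P-TEFb went with CDK9. CCNT1, cyclin T1, was listed at 7.47, 7.42 and 7.69 in co-treatment and at 5.34 to 6.83 in the other 9 libraries, with a departure of 0.76 (adjusted p = 0.00255), and CCNT2 departed by 1.11 (adjusted p = 0.00693). The elongation factor SUPT6H (0.67) also lay above. The 2 genes below, HEXIM1 and MEPCE, belong to the complex that restrains P-TEFb, of which LARP7 (−0.38, adjusted p = 0.440) and HEXIM2 (0.29, adjusted p = 0.875) did not pass. HEXIM1, the inhibitor of P-TEFb, was listed at 0.44, 4.02 and 3.91 in co-treatment, 6.16, 6.94 and 6.66 in lapatinib, 5.31, 5.38 and 5.17 in PHA-767491, and 6.60, 6.58 and 6.67 in DMSO. PHA-767491 alone thus lay below DMSO and co-treatment lower still, and the departure was −1.11 (SE 0.21, adjusted p = 0.000706) in the 10 libraries and −2.46 (SE 0.79, adjusted p = 0.811) in all 12, where the value of 0.44 in co-treatment replicate 1 enters. MEPCE, the enzyme that caps the 7SK RNA, had the same order, with 2.18, 4.29 and 4.10 in co-treatment, 6.53, 7.02 and 6.91 in lapatinib, 6.02, 5.96 and 5.87 in PHA-767491, and 6.92, 6.73 and 6.91 in DMSO. The departure of MEPCE was −1.62 (SE 0.19, adjusted p = 7.74e-08) in the 10 libraries and −2.39 (adjusted p = 0.163) in all 12. Of 11 RNA polymerase II subunits only POLR2L passed in the 10 libraries (0.66, adjusted p = 0.0264), not when ranked anew (adjusted p = 0.113) and not without lapatinib replicate 1 (0.541). POLR2A, the largest subunit, was listed at 5.17, 6.18 and 6.38 in co-treatment, 7.48, 7.51 and 7.81 in lapatinib, 7.01, 7.14 and 6.89 in PHA-767491, and 7.92, 8.02 and 8.08 in DMSO. Its departure of −0.37 (SE 0.15) did not pass in the 10 libraries as deposited (adjusted p = 0.141) and passed when ranked anew (−0.43, adjusted p = 0.0193). Its co-treated libraries lay below all others.

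Most genes of the ERK response did not pass in the 10 libraries, and those that passed lay above, as 4.18% of all genes did. Of 17 ERK feedback genes, which are switched on by ERK and restrain it, 2 lay above and 0 below in the 10 libraries (median −0.06). They were EPHA2, a receptor tyrosine kinase (0.95, adjusted p = 0.000115), and DUSP4, a MAP kinase phosphatase (0.42, adjusted p = 0.0483), which kept the call in 3 of the 10 repeats and had an adjusted p of 0.398 without lapatinib replicate 1. DUSP6, the ERK-specific phosphatase, had an SE of 0.40 around its departure of −0.28 (adjusted p = 0.730) in the 10 libraries and was listed at 0.27 in co-treatment replicate 1 and 0.32 in lapatinib replicate 2. Of 23 immediate early genes 4 lay above and 0 below (median 0.40). FOSL1, an AP-1 subunit, was listed at 7.42, 7.85 and 7.92 in co-treatment, 6.35, 6.48 and 6.87 in lapatinib, 7.06, 7.08 and 6.90 in PHA-767491, and 6.64, 6.90 and 7.07 in DMSO. It departed by 1.13 (SE 0.17, adjusted p = 2.17e-05), and its co-treated libraries lay above the other 9. IER5 (0.70, adjusted p = 0.00259) and the transcription factor SRF (0.67, adjusted p = 0.0303) passed beside BTG2, which is also a p53 target. SRF kept the call in 5 of the 10 repeats (adjusted p = 0.303 without lapatinib replicate 1). FOS and EGR1 were listed at 1.73 or less in every library and their departures of 1.22 and 0.94 did not pass (adjusted p = 0.454 and 0.610), and neither did MYC (0.42, adjusted p = 0.122).

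Genes activated by p53 halt the cell cycle or prepare cell death. Of 25 measured p53 targets 10 lay above and 0 below in the 10 libraries, against 4.18% and 2.99% of all genes, and 12 above and 1 below when ranked anew. None passed in 12 libraries. The list median was 0.51 in 10 libraries, 0.40 when ranked anew and 0.55 in 12, beside 0.20, 0.02 and 0.07 over all genes. CDKN1A, the cell cycle inhibitor p21, was listed at 9.35, 9.61 and 9.80 in co-treatment, 8.58, 8.62 and 9.13 in lapatinib, 8.63, 8.54 and 8.67 in PHA-767491, and 8.98, 8.98 and 9.04 in DMSO. Both single drugs had means below DMSO and all co-treated libraries lay above every other, with a departure of 1.24 (SE 0.15, adjusted p = 6.15e-08). BTG2, an antiproliferative gene, was listed at 5.23, 5.89 and 5.97 in co-treatment, 3.61, 1.75 and 4.32 in lapatinib, 3.93, 4.21 and 4.15 in PHA-767491, and 4.21, 4.24 and 4.26 in DMSO (departure 2.10, SE 0.32, adjusted p = 2.29e-05). SESN2, a sestrin that restrains mTORC1, was listed at 4.39, 5.23 and 5.35 in co-treatment, 3.06, 4.05 and 3.96 in lapatinib, 3.42, 3.67 and 3.32 in PHA-767491, and 3.86, 3.81 and 4.06 in DMSO (departure 2.22, SE 0.40, adjusted p = 0.000229). For BTG2 and SESN2, too, the co-treated libraries did not overlap the other 9. The 7 others were TP53INP1 (1.87), ZMAT3 (1.00), the exonuclease AEN (0.95), FDXR (0.91), GADD45A (0.90), the p53 ligase MDM2 (0.64) and the TRAIL receptor TNFRSF10B (0.44). TNFRSF10B lost the call without 4 of the 10 libraries.

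Genes of cell death departed in both directions in the 10 libraries, where 4.18% of all genes lay above and 2.99% below. Of 21 death receptors, caspases and inhibitors of apoptosis 3 lay above and 3 below in the 10 libraries (median −0.09). The 3 above were all TRAIL receptors, TNFRSF10D, the decoy TNFRSF10C (1.24, adjusted p = 0.0405) and the signalling receptor TNFRSF10B. TNFRSF10B was listed at 8.71, 9.11 and 9.31 in co-treatment and 8.22 to 8.99 in the other 9 libraries, so its groups overlapped. APAF1, the scaffold of the apoptosome, departed by −1.08 (adjusted p = 0.00650, 0.0934 without co-treatment replicate 2) and the caspase-8 regulator CFLAR by −0.72 (adjusted p = 0.0369). Of 13 BCL2 family genes 2 lay above and 0 below (median 0.36). BCL2L1, which encodes the survival protein BCL-XL, was listed at 7.24, 7.44 and 7.60 in co-treatment, 6.40, 6.18 and 6.77 in lapatinib, 6.54, 6.62 and 6.47 in PHA-767491, and 6.67, 6.35 and 6.75 in DMSO (departure 0.98, SE 0.17, adjusted p = 0.000188). Its co-treated libraries lay above all others. BAD, a pro-death member, passed at 0.76 (adjusted p = 0.0352) but not when ranked anew (0.106) and not without lapatinib replicate 1 (0.605). MCL1, a short-lived survival factor (departure 0.25, adjusted p = 0.319), and BCL2 (−0.32, adjusted p = 0.702) did not pass.

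Replication and division genes held departures of both signs, as did all genes, of which 4.18% lay above and 2.99% below in the 10 libraries. Ranked anew, those shares of all genes were 7.91% and 11.1%. Of 24 genes of CDC7, the MCM helicase and replication origins, 2 lay above and 5 below in the 10 libraries (median −0.17), and 1 above and 8 below when ranked anew (median −0.25). Beside CDC7, the genes below were GINS1 of the replicative helicase (−1.01), the origin recognition subunits ORC5 (−0.89) and ORC2 (−0.72), and the helicase subunit MCM3 (−0.78). MCM3 was listed at 7.12, 7.47 and 7.49 in co-treatment and at 8.09 to 8.37 in the other 9 libraries (adjusted p = 0.000120). The licensing factor CDT1 (0.87) and MCM5 (0.59) lay above, and MCM2, another helicase subunit, did not pass (0.20, adjusted p = 0.475). Of 22 mitotic genes 1 lay above and 3 below (median −0.23). The spindle motor KIF11 (−0.85), the checkpoint kinase BUB1B (−0.90) and the kinetochore protein NDC80 (−0.87) lay below, and WEE1, the kinase that delays mitotic entry, lay above (0.74, adjusted p = 0.00723, 0.0616 without co-treatment replicate 3). BUB1B was listed at 6.37, 6.64 and 6.66 in co-treatment and at 6.93 to 7.62 in the other 9 libraries. Of 15 G1 regulators E2F3 lay above (0.64) and the pocket proteins RBL1 (−0.85) and RB1 (−0.57) below, at adjusted p = 0.0401 for RBL1 and 0.0480 for RB1. With each of the 10 libraries centred on its median E2F3 did not pass (0.47, adjusted p = 0.0893). Each of RBL1 and RB1 kept the call in only 3 of the 10 repeats. CCND1 (0.26) and CDK4 (0.16) did not pass (adjusted p = 0.287 and 0.619).

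Of 15 genes of the m6A machinery 5 lay above and 0 below in the 10 libraries, against 4.18% and 2.99% of all genes and with a median of 0.19 beside 0.20, 6 above and 1 below when ranked anew, and RBM15 alone passed with 12. The other 4 were CBLL1 (1.04), which encodes the writer subunit HAKAI, and the reader proteins YTHDF1 (0.94), YTHDC1 (0.74) and YTHDF2 (0.62). YTHDF1 was listed at 7.03, 7.10 and 7.37 in co-treatment and at 5.48 to 6.58 in the other 9 libraries (adjusted p = 0.000285). CBLL1 was listed at 5.86, 6.24 and 6.51 in co-treatment and at 3.98 to 5.74 elsewhere (adjusted p = 0.00203). SR proteins bind exons and guide splicing. Of 24 SR proteins and their kinases 1 lay above, 9 below and 14 did not pass in the 10 libraries (median −0.03), and 1 above and 10 below when ranked anew, against 2.99% and 11.1% of all genes below. SRSF7 departed by −1.25 (SE 0.15, adjusted p = 6.15e-08) and SRSF3 by −1.15 (SE 0.13, adjusted p = 4.64e-08). SRSF3 was listed at 6.55, 7.20 and 7.01 in co-treatment, 8.66, 7.85 and 8.75 in lapatinib, 8.26, 8.34 and 8.30 in PHA-767491, and 8.61, 8.83 and 8.83 in DMSO, so that no co-treated library reached any other. SRSF6 (−0.98), SRSF5 (−0.73), SRSF10 (−0.71), SRSF2 (−0.69), SRSF11 (−0.66), SRSF1 (−0.61) and the kinase SRPK1 (−0.59) followed, and the kinase CLK3 lay above (0.88). SRSF2 overlaps MFSD11 on the other strand. None of the 24 passed with 12 libraries, where their median was −0.07.

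**Figure D3:**
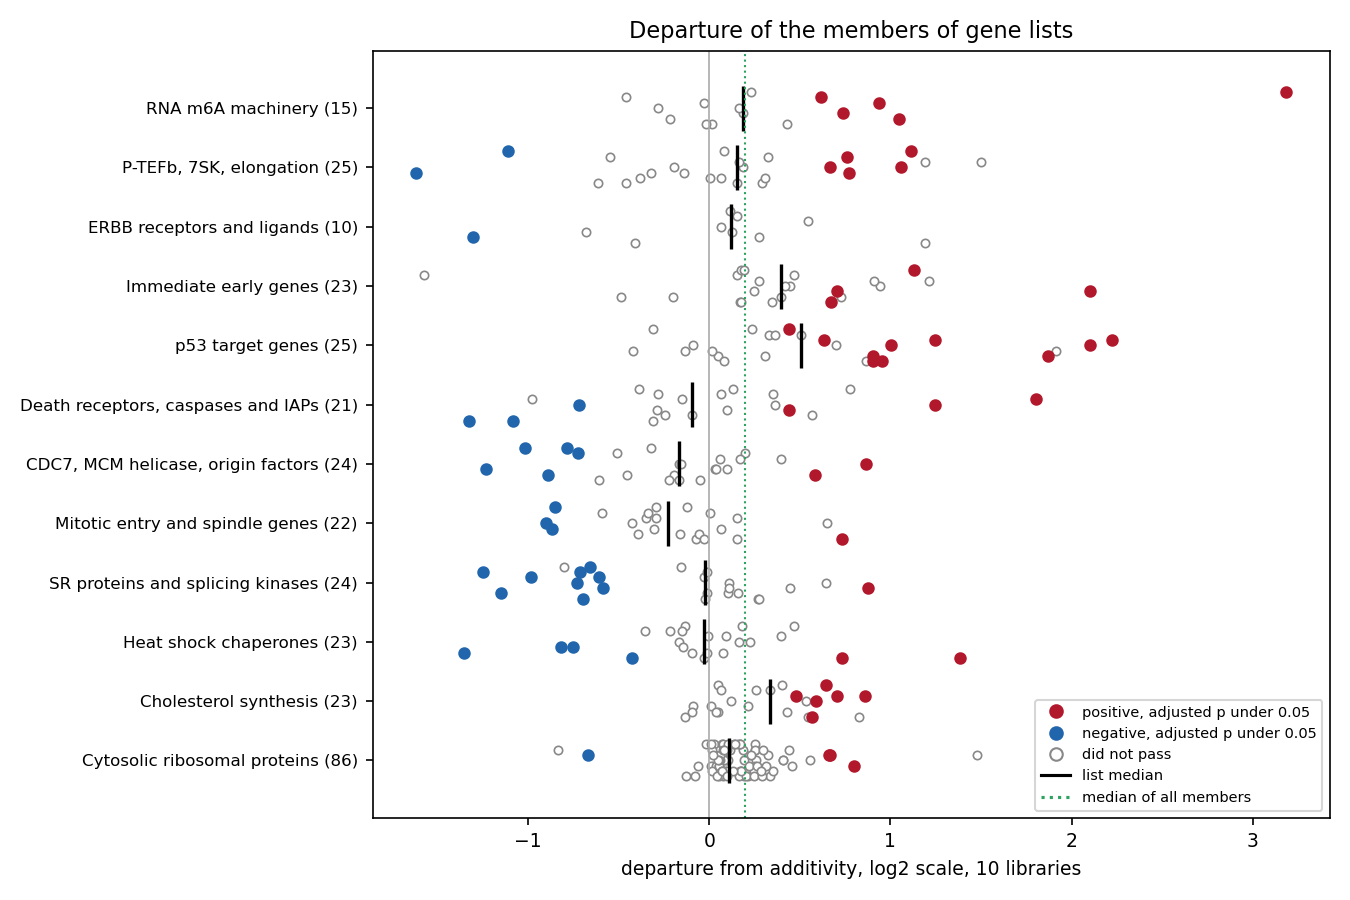
Departure from additivity in the 10 libraries, log2 scale, for the members of 12 gene lists, 1 point per gene and the number of measured genes in brackets. Filled red and blue points passed above and below the additive expectation, open points did not pass, black bars are list medians and the dotted line is the median of all 14170 genes, 0.20. The p53 targets have 10 red and no blue points, the SR proteins and kinases 9 blue points and 1 red, and RBM15 is the red point at 3.18.

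Stress pathways were mixed in the 10 libraries, where 4.18% of all genes lay above and 2.99% below. Of 23 heat shock chaperones 2 lay above and 4 below in the 10 libraries (median −0.03). The HSP90 co-chaperone CHORDC1 (−1.35), the abundant chaperone HSPA8 (−0.82) and its partner DNAJA1 (−0.75) lay below, and BAG3, a co-chaperone of HSP70, lay above (0.73). HSPA8 was listed at 10.95, 11.31 and 11.19 in co-treatment and at 11.96 to 12.34 in the other 9 libraries (adjusted p = 0.000142). Of 25 genes of the ATF4 amino acid response 2 lay above and 2 below (median 0.19). ATF4 itself was listed at 7.29, 7.78 and 7.62 in co-treatment and at 8.28 to 8.74 elsewhere (departure −0.62, adjusted p = 0.00182). Its target SLC38A2 also lay below, whereas its targets SESN2 and TRIB3 (0.65, adjusted p = 0.0382) lay above. TRIB3 kept the call in 2 of the 10 repeats.

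Among other signalling genes, 1 of 20 cytokines and NF-κB targets lay above and 2 below in the 10 libraries. Of all genes 4.18% lay above and 2.99% below. IL11, a cytokine, was listed at −0.30, 3.52 and 3.34 in co-treatment, 5.95, 6.22 and 6.15 in lapatinib, 4.75, 4.86 and 4.79 in PHA-767491, and 6.17, 6.01 and 6.13 in DMSO, a departure of −1.32 (adjusted p = 0.000300) in the 10 libraries and −2.62 (adjusted p = 0.816) in 12. The NF-κB subunit gene NFKB2 lay below (−0.59, adjusted p = 0.00745) and TNFAIP3, a brake on NF-κB, above (0.70, adjusted p = 0.00403). Of 24 TGF-β, SMAD and YAP genes the Hippo kinase LATS2 (1.06), the ligand TGFB1 (0.72) and its effector SMAD3 (0.68) lay above and 0 below (median 0.03), and the YAP target CTGF did not pass as deposited (−0.45, adjusted p = 0.164) but did when ranked anew (−0.52, adjusted p = 0.0204). TGFB1 was listed at 6.28, 6.74 and 6.90 in co-treatment and 6.44, 7.49 and 7.05 in lapatinib, and it lost the call without lapatinib replicate 1 (adjusted p = 0.231). Of 23 genes of insulin, PI3K and mTOR signalling only RPTOR, the mTORC1 scaffold, passed (−0.84, adjusted p = 0.0107). Of the transcription and repair genes examined singly, the single-strand DNA-binding protein NABP1 lay below (−1.26, adjusted p = 0.0220) with −1.92, 2.84 and 2.96 in co-treatment, and the transcription factor MITF did not pass (−0.27, adjusted p = 0.740). NABP1 lost the call without PHA-767491 replicate 2 (adjusted p = 0.0743).

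Of 23 genes of cholesterol and fatty acid synthesis 6 lay above and 0 below in the 10 libraries (median 0.34), against 4.18% and 2.99% of all genes, and again 6 and 0 when ranked anew (median 0.24), against 7.91% and 11.1%. SCD, which desaturates fatty acids, departed by 0.48 (adjusted p = 0.0271, and 0.0144 when ranked anew), and DHCR7, an enzyme of the last steps of cholesterol synthesis, by 0.59 (adjusted p = 0.0329, and 0.0371 when ranked anew). Neither gene was refitted with single libraries left out. The regulator SREBF1 (0.64) and fatty acid synthase FASN (0.71) passed in the 10 libraries but not when ranked anew (adjusted p = 0.0529 and 0.0922) or without lapatinib replicate 1 (0.459 and 0.678). Of 34 survival-linked genes, 1 lay above and 10 below in the 10 libraries (median −0.43) and 2 above and 21 below when ranked anew (median −0.55). That list was chosen by the study from these samples and is no independent evidence of direction. Among its members below were SLC38A2, the RNA helicase DDX3X (−1.12), the endosomal protein ZFYVE16 (−1.22), the kinase ROCK2 (−1.04) and APAF1.

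Large gene families came last. Of 86 cytosolic ribosomal protein genes 3 lay above and 1 below in the 10 libraries (median 0.11), against 4.18% and 2.99% of all genes. RPS28 (0.66) and RPS15 (0.80) were among those above, genes that have processed pseudogenes with which reads may be shared, and RPL7L1, a ribosome biogenesis factor caught by the family's name, was below (−0.67). Ranked anew RPS15 did not pass. The 13 mitochondrially encoded mRNAs gave no call, and their median departure was 1.21 in 12 libraries and −0.05 in 10. Of 412 genes named ZNF, mostly zinc finger transcription factors, 26 lay above and 3 below (median 0.54), and 69 above and 31 below when ranked anew (median 0.19), against 7.91% and 11.1% of all genes. ZNF574 (1.36), ZNF622 (1.23), ZNF134 (1.09) and ZNF263 (1.06) had the smallest p-values among them. Of 15 clustered histone genes none passed in the 10 libraries at a median of 0.92, and 4 lay above when ranked anew.

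Ranking the libraries anew moved several of these counts. It also raised the share of all genes above from 4.18% to 7.91% and the share below from 2.99% to 11.1%. It gave 0 above and 3 below for the ERBB receptors and ligands (median −0.07), 7 and 5 for P-TEFb and elongation (median −0.0024), 0 and 2 for RNA polymerase II subunits, 4 and 0 for ERK feedback genes (median −0.18), and 4 and 2 for immediate early genes (median 0.24). It gave 5 and 5 for death receptors and caspases (median −0.21), 1 and 0 for the BCL2 family, 2 and 3 for G1 regulators (median −0.04), 1 and 6 for mitotic genes (median −0.28), 2 and 4 for heat shock chaperones (median −0.09) and 2 and 5 for the ATF4 response (median −0.01). For cytokines and NF-κB targets it gave 2 and 3 (median −0.19), for TGF-β, SMAD and YAP genes 3 and 3 (median −0.05), and for insulin, PI3K and mTOR genes 0 and 3 (median 0.0088). The medians of the ERBB, P-TEFb, G1, ATF4, cytokine and TGF-β lists were thus above 0 as deposited and below 0 ranked anew, while that of all genes was 0.20 as deposited and 0.02 ranked anew. With all 12 libraries RBM15 and TNFRSF10D were the only members of any list to pass.

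Transcript structure, which the choice of genes did not use, moved with the departure. GENCODE 44 gave the canonical transcript of 14096 of the 14170 genes, and 12017 were protein-coding. Among these, genes below made up 3.85% of the 234 with 1 exon, 0.919% of those with 2 exons, 1.34% with 3 to 5, 2.12% with 6 to 10, 4.54% with 11 to 20 and 8.0% with more than 20, and genes above made up 4.7%, 8.27%, 5.52%, 4.8%, 4.63% and 2.84% of the same bins. Within transcripts of 1.5 to 2.5 kb genes below made up 1.93% with 1 to 5 exons, 1.71% with 6 to 10 and 3.0% with 11 to 20. At 2.5 to 4 kb the shares below were 1.04%, 2.18% and 4.1% in the same bins and 3.64% with more than 20 exons. At 4 to 6 kb they were 1.91%, 3.01%, 5.96% and 7.24%. Genes up to 5 kb long from start to end were above in 7.18% and below in 1.37%, and genes of 100 to 200 kb were above in 1.63% and below in 6.31%, while genes over 200 kb were above in 0.338% and below in 3.38%. Across the protein-coding genes Spearman's rho between departure and gene length was −0.11 in 12 libraries, −0.23 in 10 and −0.23 when ranked anew, and for exon number it was −0.17, −0.15 and −0.12. Genes share libraries and are not independent, so no test is given. EGFR, with 28 exons, and UTP18, with 14, were below, while RBM15, with 3, was above. MEPCE, with 4, and HEXIM1, with 1, were below.

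GC content of the transcript moved with the departure as well. In the 10 libraries genes above made up 1.29% of those under 40% GC and 11.9% of those over 60% GC, and genes below made up 6.08% and 0.439%. The median departure was −0.03 under 40% GC and 0.56 over 60% GC. With 12 libraries the medians of these bins were 0.07 and 0.05. Replicates of 1 group also differed by GC. Lapatinib replicate 1 minus replicate 3 had a median of −0.11 under 40% GC and −0.97 over 60% GC, and PHA-767491 replicate 2 minus replicate 1 had 0.34 and −0.03. Lapatinib replicate 2 minus replicate 3 ran the other way, −1.43 and −0.20. Between co-treatment replicates 2 and 3 the difference was −0.27 and −0.29, and between DMSO replicates 1 and 3 it was −0.14 in both bins. Co-treatment replicate 1, which enters only with 12 libraries, differed from replicate 3 by −1.045 under 40% GC and −1.62 over 60% GC. The part of these library differences in the departures was not tested. The bins were chosen after the data were seen.

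**Figure D4:**
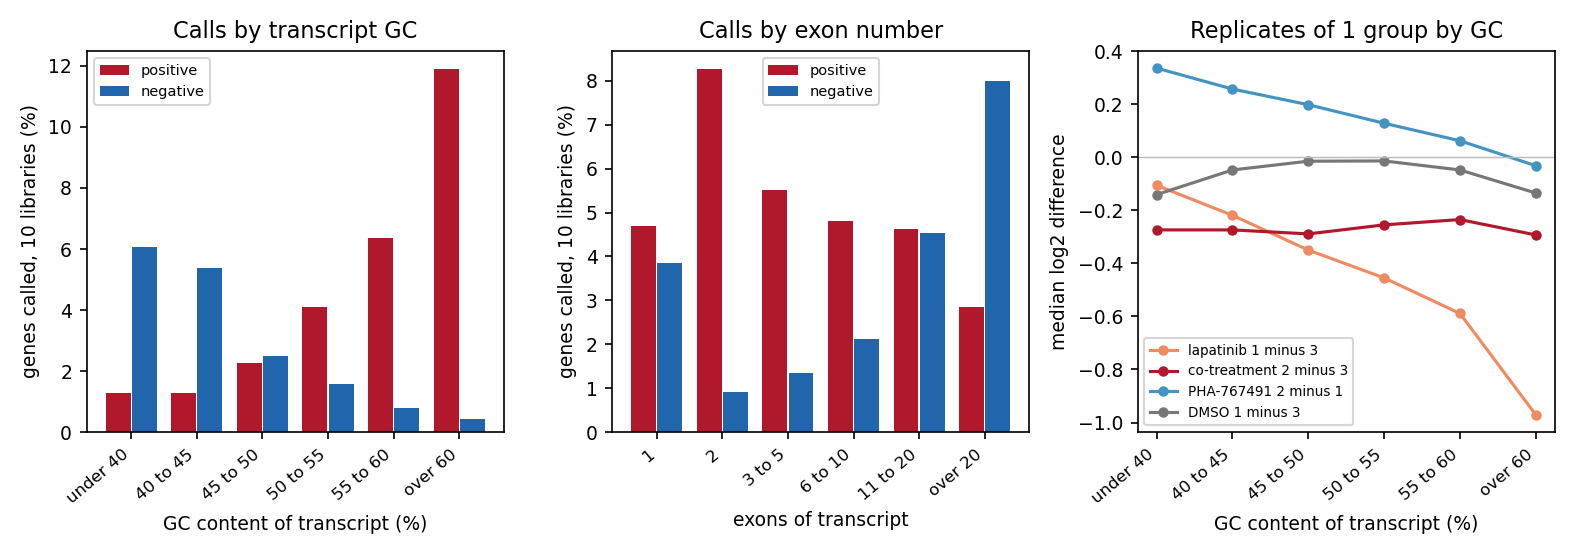
Percent of genes that passed above (red) and below (blue) the additive expectation in the 10 libraries by GC content of the transcript (left) and by exon number of protein-coding genes (middle), and the median log2 difference between replicates of 1 group by GC content (right). Genes above rise to 11.9% over 60% GC and genes below to 8.0% with more than 20 exons, and lapatinib replicate 1 falls below replicate 3 by 0.97 over 60% GC.

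Whether the departure in SKBR7 differed from that in Hs578T was tested over all 24 libraries and the 8917 genes with a value in each. No gene passed (limma, 191 at an unadjusted p under 0.05), and the median difference, SKBR7 minus Hs578T, was 0.93. The Hs578T libraries listed 9967 to 23320 genes. Without Hs578T DMSO replicate 1, the library with 9967, again no gene of 12200 passed (259 unadjusted) and the median was 0.23. Ranked anew the median was 0.02, with no gene passing and 667 unadjusted. These values do not show that the lines responded alike.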

How the data were processed

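RNA sequencing libraries of SKBR7 and Hs578T cells were deposited as 1 table of log2 values per gene and library. The authors counted read pairs per gene with featureCounts 1.4.6, scaled them by TMM with edgeR and quantile normalised them before they deposited the log2 values. A cell of the table is empty where a library does not list the gene, and none was filled in. The methods and the labels name different aligners. Of 36517 lines, 36 repeated identifiers were left out.

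The departure was fitted here with limma 3.58.1 in R 4.3.3 (lmFit, eBayes with a variance trend, a mean per group, two-sided, adjusted over all genes tested), with 12 libraries and with 10. Depth is unknown beyond the genes listed. The fit was tested on simulated data with noise independent between genes and libraries. Library differences shared across genes, as by depth or GC content, were not simulated. The gene set, the 28 lists and the tests were chosen with earlier results of these data known. Named genes were those called with 12 libraries, up to 10 in each direction with 10 libraries (mean log2 value above the median gene, co-treated libraries on 1 side of the expectation), up to 4 called members of each list, and 26 chosen singly. Other members of lists and genes marked as such were added after their values were seen. Some genes that the rule names are not reported here. Tables and figures used Python 3.11.15, pandas 2.3.3, numpy 2.4.6 and matplotlib 3.10.9. Alternatives were another scaling, a replicate block, no variance trend, other filters and leaving out each library.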

Additional observations from a re-analysis of the deposited data

How the results depend on the processing

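With 12 libraries the counts of genes above and below, 2 and 1, were 592 and 423 without the pair of libraries that list few genes, 1 and 0 with each library centred on its median, 163 and 319 when ranked anew, 1121 and 1576 with 10 libraries ranked anew, and 0 and 0 without the variance trend (376 at an unadjusted p under 0.05) and again over the 21057 genes listed in at least 3 libraries and in every group (745 unadjusted). They ranged from 0 to 9 and from 0 to 118 when 1 library was left out. A mean log2 value of at least 3 left them at 2 and 1. The median departure, 0.07, ranged from −0.18 to 0.43 without 1 library.

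With 10 libraries the counts, 592 and 423, were 548 and 1008 with each library centred, 1121 and 1576 when ranked anew, 6 and 22 without the variance trend, and 105 to 3167 and 183 to 522 without 1 library. The alternatives on the 10 libraries were added after the data were seen.

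Whether the replicate numbers pair the samples is not settled by these values. Libraries with the same number had correlated deviations over 0.1 in 5 of 18 pairs, against 9 of 36 pairs with different numbers. The highest correlation was 0.59 with the same number and 0.44 with different numbers. Depth differences between libraries also enter these deviations, so the counts cannot exclude pairing. With the replicate block the counts were 2 and 1 in 12 libraries and 394 and 372 in 10, and the difference between lines gave 0 calls (222 unadjusted).

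Of the 98 named genes, 86 passed in the 10 libraries. All 86 kept their sign when ranked anew, where 77 passed, 69 passed with libraries centred, 81 with the replicate block and 13 without the variance trend. In the repeats without 1 of the 10 libraries 56 of the 86 kept the call each time, 25 in 6 to 9 of the 10 repeats and 5 (DUSP4, RB1, RBL1, SRF and TRIB3) in fewer. Without 1 of the 12 libraries the sign turned for 12 named genes, none of them called with 12. Their departures ranged from −0.31 to 0.61 for BAD, −0.31 to 0.64 for FASN, −0.0915 to 0.17 for MCM2, −0.51 to 1.39 for MRPL12, −0.0948 to 1.46 for MZT2B and −0.0545 to 0.77 for RPS15, each lowest without lapatinib replicate 1. They ranged from −0.87 to 0.0073 for BCL2, −0.84 to 0.0045 for CTGF, −1.38 to 0.99 for DUSP6 and −1.19 to 0.41 for MITF, each highest without co-treatment replicate 1. They ranged from −0.70 to 0.33 for RB1, highest without lapatinib replicate 1, and from −0.13 to 1.96 for EGR1, lowest without lapatinib replicate 2. Weights per library could not be estimated, because the fit did not converge, so that alternative gave no value.

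The limits are those of few libraries. With 10 libraries 2 co-treated and 2 lapatinib libraries carry the departure, read depth is not known, and genes missing in 1 library were not tested. The causes of the changes between settings were not tested.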
